A study of Mus musculus with 6 samples.

Results

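The 44 genes described here encode the machinery of DNA replication and of the cell cycle, and were taken by name from a fixed list out of 22367 protein-coding genes annotated on the assembled chromosomes of mm9. They comprise 10 genes of the replicative helicase and origin licensing, 9 of the fork, clamp and polymerases, 4 of nucleotide supply, 5 cyclins of S phase and mitosis, 3 D-type cyclins, 4 cyclin-dependent kinases, 3 E2F factors and 6 mitotic kinases, checkpoint and chromosome proteins. All 44 were found in the annotation. Chromatin accessibility was measured by ATAC-seq, in which the Tn5 transposase cuts and tags open DNA, in 3 mouse cell lines with 2 replicates each. The lines are named by their Pax6 level and are called HIGH, ON and OFF below. RAG, the Pax6-OFF line, grew out of a BALB/c renal adenocarcinoma, and MV+, the Pax6-ON line, is of lens epithelial origin from a wildtype C57BL6 mouse. The Pax6-HIGH line, β-TC3, is an insulinoma line, so tissue, strain and Pax6 level cannot be told apart. All lines were grown in the same medium with fetal calf serum, were untreated, and were not authenticated in the study. Nuclei were released with 0.2% NP40 for Pax6-ON and 0.1% NP40 for the other lines, and the effect of the detergent cannot be told apart from that of the line. The replicates of a line were pooled into 1 peak call, so no value below has a replicate error and every comparison is a description.

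A promoter was counted as called in a line where any base of a peak lay within 1 kb of an annotated start site of the gene. Its level is the pileup, the number of fragments covering the summit of the strongest such peak, which may include PCR duplicates. The rank is that pileup's place among all peaks of the line, with 1 the highest, and the percentile runs up to 100 for the highest peak. The HIGH call held 28024 peaks from 100254099 fragments and the OFF call 14022 from 102223606, while the ON call held the fewest peaks, 9821, from the most fragments, 130955836. Lowest pileups were 25 in HIGH, 30 in ON and 25 in OFF cells, and no site below them was called. Of 10 beta cell markers 4 were called in HIGH, 1 in ON and 0 in OFF cells, of 10 lens markers 3, 3 and 2, and of 10 kidney markers 2, 1 and 3. The beta cell share in HIGH cells, 40%, and the kidney share in OFF cells, 30%, were below those of all genes (given below). The lens share in ON cells, 30%, was above it, but HIGH and ON cells had the same lens markers called. *Ins1*, *Ins2*, *Pdx1*, *Cryaa* and *Pax8* were called in no line, and Pax6 itself was called in HIGH and ON cells only.

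Replication starts at origins where ORC, *Cdc6* and *Cdt1* load the Mcm2-7 helicase in G1 phase, and cyclin-dependent kinases then convert the loaded helicase into active forks. Many genes of this machinery are transcribed in waves. E2F factors act at genes needed for G1 to S phase, while genes of G2 phase and mitosis are typically controlled through the CHR element and through CCAAT boxes bound by NF-Y. Proliferating cell lines express most of these genes.

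The letters of these elements can be read in the promoters themselves. The stretches shown end at the base before the start site, hold no annotated transcript and come from mm9 (NCBIM37). They are from the highest-ranked called gene with an E2F or CHR match in the stretch in each of 4 roles, followed by *Ccnb2* and *Aurkb*, which were called in no line and were chosen after their values were seen. Each is printed 5′ to 3′ on the strand of its gene, and capitals mark E2F letters, CHR letters and CCAAT on either strand. *Mcm4* (chr16:15637494-15637633, minus strand) carries E2F letters 78 bases before its start site and *Pola1* (chrX:90877495-90877634, minus) at 138. *Cdk1* (chr10:68815687-68815826, minus) has E2F letters at 105, CHR letters at 45 and CCAAT at 54 and 22 bases, and *Mki67* (chr7:142908063-142908202, minus) has CHR letters at 116 and 98. *Ccnb2* (chr9:70269362-70269501, minus) has CCAAT at 87, 54 and 21, and *Aurkb* (chr11:68859009-68859148, plus) has CHR letters at 125 and CCAAT at 51 and 21 bases before the start. Matches outside the stretches are not shown. Among them are CHR letters of *Ccnb2* at 167 bases before its start and at base 5 of the transcript, and of *Aurkb* at base 2.
Mcm4: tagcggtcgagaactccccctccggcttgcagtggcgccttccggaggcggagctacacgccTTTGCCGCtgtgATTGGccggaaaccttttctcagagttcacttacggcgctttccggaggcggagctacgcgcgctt
Pola1: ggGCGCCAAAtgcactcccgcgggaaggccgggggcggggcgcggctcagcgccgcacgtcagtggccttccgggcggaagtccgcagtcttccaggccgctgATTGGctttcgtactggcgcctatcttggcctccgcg
Cdk1: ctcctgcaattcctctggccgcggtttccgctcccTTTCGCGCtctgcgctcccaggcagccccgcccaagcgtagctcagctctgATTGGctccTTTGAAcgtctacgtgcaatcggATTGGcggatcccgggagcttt
Mki67: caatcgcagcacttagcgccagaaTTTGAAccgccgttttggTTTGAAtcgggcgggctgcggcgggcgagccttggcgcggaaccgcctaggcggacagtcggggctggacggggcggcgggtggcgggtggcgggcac
Ccnb2: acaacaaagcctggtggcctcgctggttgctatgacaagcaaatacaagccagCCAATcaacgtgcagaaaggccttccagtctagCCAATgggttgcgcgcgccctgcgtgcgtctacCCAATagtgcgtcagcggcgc
Aurkb: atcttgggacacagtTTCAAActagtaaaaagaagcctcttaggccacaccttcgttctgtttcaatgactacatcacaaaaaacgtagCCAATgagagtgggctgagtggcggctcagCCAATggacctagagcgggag

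Most of these promoters were open in HIGH and OFF cells and fewer were called in ON cells. A promoter peak was called for 38 of the 44 genes (86.4%) in HIGH cells, where 46.4% of all protein-coding genes had one. In ON cells 17 (38.6%) were called against 21.4% of all genes, and in OFF cells 33 (75%) against 36.1%. The genes were thus above the share of all genes in every line, and the order of the lines followed their numbers of peaks. When each line was reduced to the 9821 peaks of lowest q-value, 26 of the 44 were called in HIGH, 17 in ON and 27 in OFF cells, against 28%, 21.4% and 30.7% of all genes.

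Promoters rich in CpG are open more often whatever the gene. A promoter was counted as CpG-rich where the 500 bases on each side of the start site had a GC content of at least 55% and an observed-to-expected CpG ratio of at least 0.6. By this measure 25 of the 44 (56.8%) were CpG-rich, against 38.6% of all promoters. Among CpG-rich promoters of all genes, 78.2% were called in HIGH, 38% in ON and 66.2% in OFF cells. Of the 25 CpG-rich promoters of replication and cell-cycle genes, 23 (92%), 14 (56%) and 23 (92%) were called. These shares were above those of CpG-rich promoters in general in every line, by a smaller factor than the one found against all genes.

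**Figure D1:**
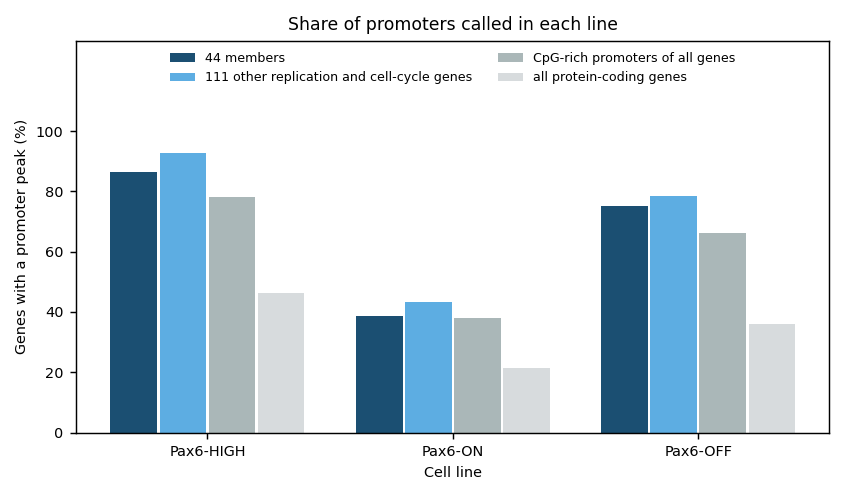
Share of genes (%) with a peak within 1 kb of a start site in each cell line, for the 44 genes, 111 other replication and cell-cycle genes, the CpG-rich promoters of all genes and all protein-coding genes. The 44 genes reached 86.4%, 38.6% and 75% in HIGH, ON and OFF cells, above the 46.4%, 21.4% and 36.1% of all genes.

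Across lines, 15 of the 44 promoters were called in all 3, against 17.5% of all genes. These were *Mcm4*, *Mcm6*, *Mcm7*, *Rfc3*, *Rpa1*, *Pole*, *Ccne2*, *Ccna2*, *Ccnb1*, *Cdk2*, *Cdk4*, *E2f1*, *E2f3*, *Aurka* and *Mki67*. A further 19 were called in 2 lines (18.5% of all genes), of which 17 were shared by HIGH and OFF cells and 2, *Mcm5* and *Rrm1*, by HIGH and ON cells. None of the 44 was shared by ON and OFF cells alone. Of all genes, 7387 were called in both HIGH and OFF, 4424 in both HIGH and ON and 4031 in both ON and OFF cells. All 3 lines shared 3905 of these, so few genes in general were shared by ON and OFF cells alone. In 1 line only, 5 of the 44 were called (14.6% of all genes), namely *Mcm10*, *Cdc6*, *Tyms* and *Bub1* in HIGH and *E2f2* in OFF cells. *Prim1*, *Ccnb2*, *Ccnd1*, *Ccnd2* and *Aurkb* made up the 5 called in no line, against 49.5% of all genes.

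The calls in ON cells went with the level in the other lines. Of the 32 genes called in both HIGH and OFF cells, 15 (46.9%) were called in ON cells as well, against 52.9% of all genes called in both. In HIGH cells the genes also called in ON had pileups of 75 to 306 (median 108, n = 17), and the others 29 to 202 (median 62, n = 21). In OFF cells the pileups were 45 to 153 (median 88, n = 15) and 30 to 65 (median 50, n = 18). The ranges overlapped in both lines. The medians for all genes were 117 and 61 in HIGH and 74 and 47 in OFF cells, so the weaker promoters were the ones missing from the ON call among genes in general too. Among genes with a pileup of at least 100 in HIGH cells, 10 of 15 replication and cell-cycle genes (66.7%) and 73.4% of all genes were called in ON cells. *Mcm3*, *Mcm10*, *Ccne1*, *Cdk1* and *Gmnn* were the 5 of these 15 without a ON call.

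**Figure D2:**
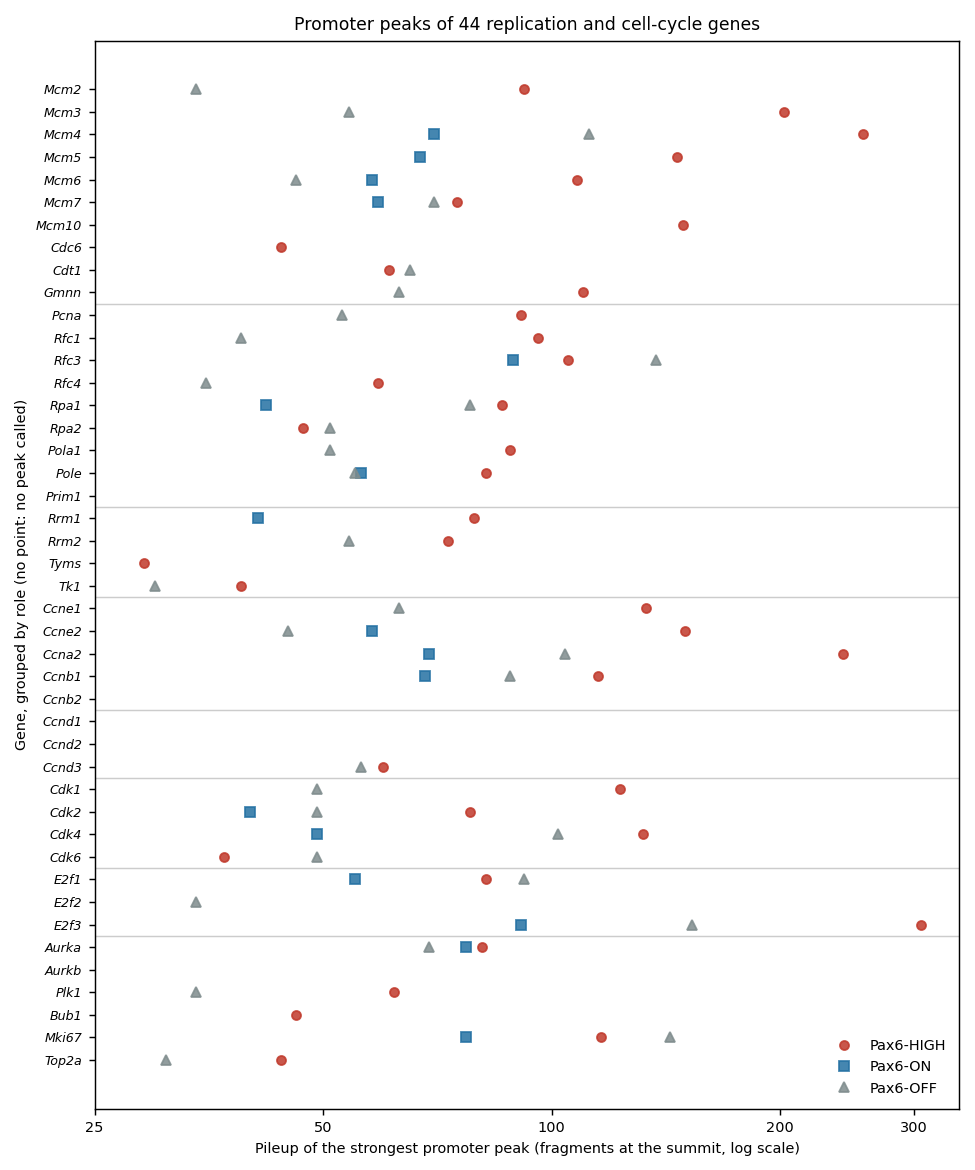
Pileup of the strongest promoter peak (fragments at the summit, log scale) of each of the 44 genes in HIGH (circles), ON (squares) and OFF cells (triangles), with grey lines between roles. A missing point is an uncalled promoter, as for *Prim1*, *Ccnb2*, *Ccnd1*, *Ccnd2* and *Aurkb*, and pileups are not scaled for depth.

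The helicase and licensing genes were all called in HIGH cells, where 10 of 10 had a peak, with 4 in ON and 7 in OFF cells. Its members in HIGH cells spanned pileups of 44 to 257 with a median of 109. *Mcm4*, a subunit of the helicase, had the highest level of the group. Its pileup was 257 in HIGH (rank 439), 70 in ON (rank 3631) and 112 in OFF cells (rank 1007), and the HIGH peak covered chr16:15637185-15638137. Its summits in the 3 lines lay within 5 bp of each other, upstream of the E2F and CCAAT letters in the stretch above. *Mcm6* had pileups of 108, 58 and 46 in HIGH, ON and OFF cells, and *Mcm7* had 75, 59 and 70. The summit of *Mcm7* lay at internal start sites of shorter transcripts, and a second ON peak, nearer the start of the full-length gene, had a pileup of 39.

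The other helicase subunits lacked a call in at least 1 line. *Mcm2* had a pileup of 92 (rank 6074) in HIGH and 34 (rank 11942) in OFF cells, and its nearest ON peak was 56266 bp from a start site. *Mcm3* had 202 (rank 929) and 54 (rank 5994) in the same lines, the highest level of any of the 44 genes that was not called in ON cells. *Mcm5*, at chr8:77632567-77633862 in HIGH cells, had 146 (rank 2230) there and 67 (rank 3994) in ON cells. It was the subunit without a OFF call, where the nearest peak lay 75236 bp away.

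The loading and activating factors had fewer calls still. *Mcm10*, which helps activate the loaded helicase, was called in HIGH cells only, at chr2:4933374-4934024 with a pileup of 149 (rank 2107, fold enrichment 8.29). This is a strong peak of that line, at the 92.4th percentile, while the nearest peaks in the other lines lay 50956 bp (OFF) and 366339 bp (ON) away. *Cdc6*, the loading ATPase, had a pileup of 44 (rank 17907) in HIGH cells and no other call. *Cdt1*, its partner in loading, had 61 (rank 11674) in HIGH and 65 (rank 4133) in OFF cells. *Gmnn*, the inhibitor of *Cdt1*, had 110 (rank 4249) and 63 (rank 4395), with summits 264 and 366 bp downstream of the start site.

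Of the fork, clamp and polymerase genes, 8 of 9 were called in HIGH, 3 in ON and 8 in OFF cells, and *Prim1* was the exception. *Rfc3*, a subunit of the clamp loader, stood highest in the group in every line. Its pileup was 105 in HIGH (rank 4715), 89 in ON (rank 2159) and 137 in OFF cells (rank 536). *Rpa1*, which coats single-stranded DNA, had 86, 42 and 78, and *Pole*, the leading-strand polymerase, had 82, 56 and 55. The *Rpa1* peak in ON cells ranked 8346 of 9821, near the bottom of that list.

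The remaining fork genes were called in HIGH and OFF cells but not in ON. *Pcna*, the sliding clamp, had pileups of 91 (rank 6210) and 53 (rank 6187). *Rfc1* had 96 (rank 5628) and 39 (rank 10227), and *Rfc4* had 59 (rank 12231) and 35 (rank 11615), both being clamp loader subunits. *Rpa2*, the partner of *Rpa1*, had 47 (rank 16486) and 51 (rank 6663), the only gene of the group besides *Rfc3* whose pileup was higher in OFF than in HIGH cells. *Pola1*, the catalytic subunit of the priming polymerase, had 88 (rank 6585) and 51 (rank 6663), with both summits at the same base, chrX:90877582, inside the stretch printed above. *Prim1*, the primase that works with it, had no promoter call, and its nearest peaks lay 8492 bp (HIGH), 32143 bp (ON) and 8641 bp (OFF) away.

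The nucleotide supply genes had the lowest median pileup of any group in HIGH cells, 56. *Rrm1*, the large subunit of ribonucleotide reductase, had 79 (rank 7950) in HIGH and 41 (rank 8526) in ON cells and no OFF call. *Rrm2*, the small subunit, had 73 (rank 8976) in HIGH and 54 (rank 5994) in OFF cells with the summit at the same base, and no ON call. The subunits of this enzyme thus each lacked a call in a different line, but the *Rrm1* call in ON cells was weak, at percentile 12.3 of that line. *Tyms*, which makes thymidylate, had the lowest HIGH pileup among the 44 genes, 29 (rank 26698), and no call elsewhere. *Tk1*, the salvage kinase, had 39 (rank 20632) in HIGH and 30 (rank 13208) in OFF cells. Its summits lay 1158 and 1333 bp inside the gene from the nearest start site, that of a noncoding transcript, so this call is not at the coding start.

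Cyclins of S phase and mitosis stood high in HIGH cells, with a median pileup of 142 over the 4 called. *Ccna2*, the cyclin of S and G2 phase, had pileups of 242 in HIGH (rank 527), 69 in ON (rank 3745) and 104 in OFF cells (rank 1270). *Ccne2* had 150 (rank 2064), 58 (rank 5270) and 45 (rank 8244), and *Ccne1* had 133 (rank 2784) in HIGH and 63 (rank 4395) in OFF cells, both being cyclins of the G1 to S step. *Ccnb1*, a mitotic cyclin, had 115, 68 and 88. All but *Ccne1* of these were called in every line. *Ccnb2*, the other B-type cyclin here, was called in none, and its nearest peaks lay 81965 bp (HIGH), 2563826 bp (ON) and 81959 bp (OFF) away.

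D-type cyclins, which link growth signals to *Cdk4* and *Cdk6*, were the least called group, with 1 of 3 in HIGH and OFF cells and none in ON. *Ccnd3* had a pileup of 60 (rank 11951) in HIGH and 56 (rank 5607) in OFF cells, at the downstream of its 2 annotated start sites. Its upstream start site had a ON peak 2765 bp away with a pileup of 43. *Ccnd1* had no promoter call in any line although its start site was CpG-rich, the only such case among the 25. The nearest peak to *Ccnd1* was 3413 bp upstream in OFF cells with a pileup of 33, and 22804 bp away in HIGH cells. *Ccnd2* had its nearest peaks at 24699 bp (HIGH), 93355 bp (ON) and 41192 bp (OFF).

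The cyclin-dependent kinases were all called in HIGH and OFF cells. *Cdk4*, the G1 kinase, had pileups of 132 in HIGH (rank 2839), 49 in ON (rank 6915) and 102 in OFF cells (rank 1351). *Cdk2*, the kinase of S phase entry, had 78 (rank 8106), 40 (rank 8703) and 49 (rank 7119), the lowest ON level of the called genes. *Cdk1*, the mitotic kinase, had 123 (rank 3332) in HIGH and 49 (rank 7119) in OFF cells, with summits 60 and 33 bp upstream of the start site, close to its CCAAT and CHR letters. *Cdk6*, the other kinase paired with D-type cyclins, had 37 (rank 21832) and 49 (rank 7119). It was among the weakest peaks in HIGH cells, with a summit 131 bp upstream of a start site, while the OFF summit lay 152 bp downstream of the other annotated one.

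Among the E2F factors, *E2f3* had the highest pileup of all 44 genes in every line. Its values were 306 in HIGH (chr13:30077886-30078556, rank 241), 91 in ON (rank 2054) and 153 in OFF cells (rank 379). The summits lay 591, 549 and 551 bp upstream of the annotated start site. A second peak at its shorter transcript had pileups of 125 in HIGH and 87 in OFF cells and was not called in ON. By fold enrichment over local background the strongest *E2f3* peak had 5.96 in HIGH, 6.06 in ON and 4.75 in OFF cells. This was the highest of the genes in ON cells only, and *Ccna2*, for one, had 7.89 in HIGH and 8.83 in OFF cells. *E2f1*, an activator of S phase genes like *E2f3*, had 82 (rank 7462), 55 (rank 5786) and 92 (rank 1798). *E2f2*, the third activator, was called in OFF cells only, at chr4:135728534-135728759 with a pileup of 34 (rank 11942) and its summit 336 bp inside the gene. A HIGH peak with a pileup of 42 lay 2469 bp from an *E2f2* start site, which the 1 kb rule did not count.

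Of the mitotic genes, *Mki67* and *Aurka* were called in all lines, *Plk1* and *Top2a* in HIGH and OFF cells, *Bub1* in HIGH cells and *Aurkb* in none. *Mki67*, the proliferation marker protein of mitotic chromosomes, had pileups of 116 in HIGH (rank 3797), 77 in ON (rank 2999) and 143 in OFF cells (rank 465). *Aurka*, the spindle pole kinase, had 81 (rank 7627), 77 (rank 2999) and 69 (rank 3621). Its unscaled pileups were close to each other, but relative to other promoters (scaling described below) its HIGH to ON ratio of 0.619 was the lowest of the genes called in both lines. *Plk1*, a kinase of mitotic entry and exit, had 62 (rank 11435) in HIGH and 34 (rank 11942) in OFF cells. *Top2a*, which untangles sister chromatids, had 44 (rank 17907) and 31 (rank 12897) in the same lines. *Bub1*, a spindle checkpoint kinase, had 46 (rank 16962) in HIGH cells. *Aurkb*, the kinase of the chromosomal passenger complex, had its nearest peaks 5131 bp (HIGH), 44250 bp (ON) and 5270 bp (OFF) away.

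Where they were called, these promoters ranked near promoters in general. The median pileup of the genes was 87 in HIGH, 59 in ON and 54 in OFF cells, against 80, 65 and 57 for all called genes. The median percentile among all peaks was 75.7, 47.1 and 56.6, against 71.9, 56 and 60.8. In HIGH cells 20 of 38 (52.6%) were in the top 25% of peaks, against 45.8% of all called genes. In ON cells 2 of 17 (11.8%) were, *E2f3* and *Rfc3*, against 29.8%, and in OFF cells 9 of 33 (27.3%) against 33.1%. Relative to other promoters the genes were slightly above the middle in HIGH cells and below it in the other lines, most in ON. Peak lengths had medians of 732, 458 and 566 bp, against 739, 459 and 566 bp.

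The order of pileups was partly shared between lines. Over the genes called in both lines, Spearman's rho of the pileups was 0.501 for HIGH and OFF (n = 32), 0.502 for HIGH and ON (n = 17) and 0.605 for ON and OFF cells (n = 15). The same values over all genes were 0.511, 0.493 and 0.527. The points share each line's library and depth, and the genes kept their order about as well as genes in general.

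Levels were compared between lines as ratios of pileup, divided by the median ratio of all genes called in both lines, so that 1 means no shift relative to other promoters. Between HIGH and OFF cells the median scaled ratio of 32 genes was 1.02 (range 0.498 to 2.47), with 16 above and 16 below 1. *Mcm3* (2.47) and *Ccne2* (2.2) were at least 2-fold higher in HIGH cells, against 7.92% of all genes, and *Cdk6* (0.498) was at least 2-fold lower, against 7.3%. Their fold enrichments in HIGH and OFF cells were closer, 6.28 and 4.64 for *Mcm3*, 4.06 and 3.88 for *Ccne2*, and 2.31 and 3.01 for *Cdk6*. The *Cdk6* summits compared lay at different annotated start sites. Between HIGH and ON cells the median of 17 genes was 1.13 (0.619 to 2.16). *Mcm4* (2.16) and *Ccna2* (2.06) were at least 2-fold higher in HIGH cells, against 6.89% of all genes, and none was 2-fold lower, against 8.86%. Between ON and OFF cells the median of 15 genes was 0.69 (0.5 to 1.34), and 11 of the 15 lay below 1. None was 2-fold higher in ON cells, against 4.81% of all genes, and *Cdk4* (0.5) was 2-fold lower, against 4.14%. The comparisons share lines and are not independent of each other.

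Median pileup ratios differed from chromosome to chromosome, and the single genes moved with them. Copy number was not measured here, and its part in these medians was not tested. On chromosome 6 the scaled ratio of HIGH to OFF had a median of 2.08 over all genes called in both lines, against 1 for the genome. *Mcm2* on that chromosome went from a scaled ratio of 1.78 to 0.857 when scaled within it. Scaled within the chromosome, none of the 6 ratios past 2-fold stayed past it. *Mcm3* became 1.55, *Ccne2* 1.96 and *Cdk6* 0.649 for HIGH to OFF. *Mcm4* became 1.6 and *Ccna2* 1.64 for HIGH to ON, and *Cdk4* became 0.643 for ON to OFF. *Rfc1* (2.12 for HIGH to OFF) and *Mki67* (0.486 both for HIGH to OFF and for ON to OFF) passed 2-fold instead. No share of all genes past 2-fold is given for this scaling, so these genes have no background beside them. The medians of the genes became 0.988, 1.1 and 0.9 in the order above.

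**Figure D3:**
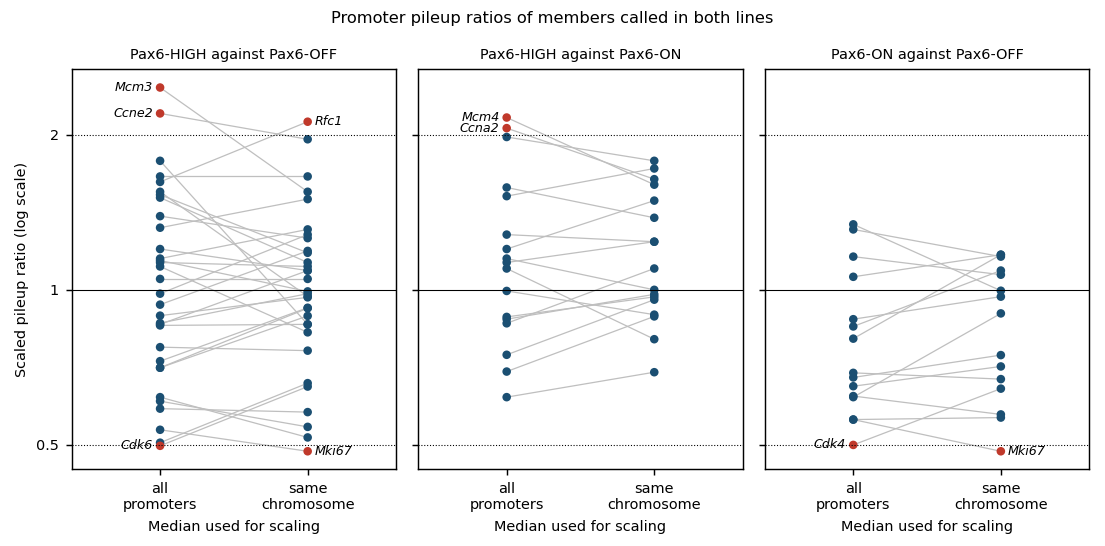
Pileup ratios of genes called in both lines (log scale), scaled by the median of all promoters (left points) or of promoters on the same chromosome (right points), with a line joining each gene. Dotted lines mark 2-fold, and red points are at or past it. *Mcm3*, *Ccne2*, *Cdk6*, *Mcm4*, *Ccna2* and *Cdk4* pass it only on the left, *Rfc1* and *Mki67* only on the right.

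Most peaks sat at the start site. The summit was within 250 bp of a start site for 34 of 38 genes (89.5%) in HIGH, 16 of 17 (94.1%) in ON and 29 of 33 (87.9%) in OFF cells, against 83.9%, 84.6% and 86.1% of all called genes. It lay upstream of the start site for 27 (71.1%), 15 (88.2%) and 24 (72.7%), against 64.8%, 68.4% and 66.3%. Among the 15 genes called in all lines, the summits of the 3 lines lay within a median of 42 bp of each other. The spread ran from 5 bp for *Mcm4* to 186 bp for *Mcm7*, and 12 of the 15 (80%) were within 100 bp, against 60.2% of all genes called in all lines. *Cdk2* (12 bp), *E2f1* (20 bp), *Rfc3* (26 bp) and *Mcm6* (29 bp) were the next tightest after *Mcm4*.

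**Figure D4:**
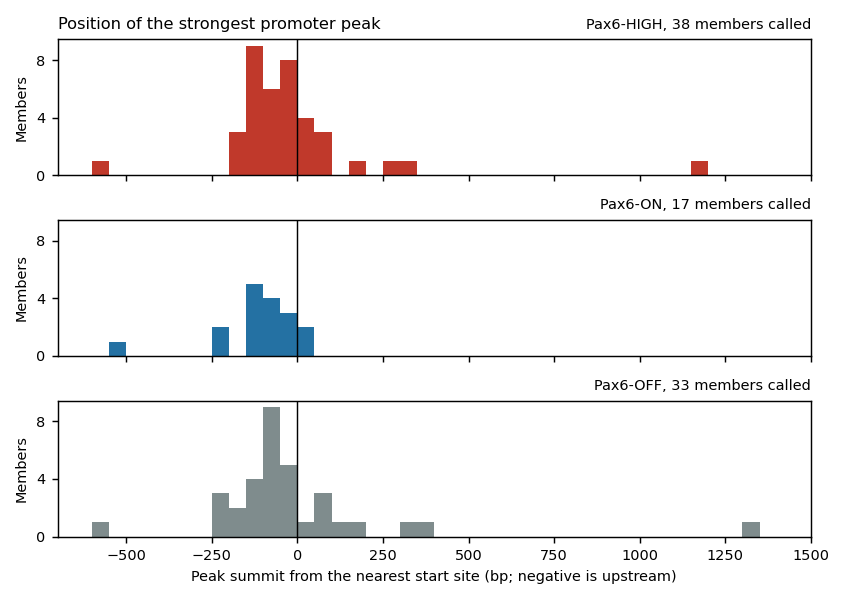
Distance of the summit of the strongest promoter peak from the nearest annotated start site (bp, negative is upstream) for the genes called in each line, as numbers of genes. Most summits lie just upstream of the start site, with *E2f3* the farthest upstream and *Tk1* the farthest downstream (1158 and 1333 bp).

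Some of these genes start close to a neighbour transcribed the other way, and a peak at such a shared start cannot be assigned to 1 gene. A coding gene on the opposite strand started within 1 kb upstream of 6 of the 44 (13.6%), against 10.3% of all genes. The pairs were *Mcm4* with *Prkdc* (466 bp between start sites), *Mcm7* with *Ap4m1* (160 bp), *Rpa1* with *Smyd4* (109 bp), *Pole* with *Pxmp2* (120 bp), *Tk1* with *Afmid* (57 bp) and *Aurka* with *Cstf1* (146 bp). All but *Tk1* of these were called in the 3 lines. The *Tk1* peaks and the *Mcm7* summits lay inside the gene, away from the shared start.

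E2F and CCAAT letters were more frequent in these promoters than in promoters in general. The window ran from 250 bases before to 50 after the start site, both strands were searched, and overlapping matches counted a promoter once. E2F letters (TTTCCCGC, TTTGGCGC, TTTCGCGC or TTTGCCGC) were in 14 of 44 promoters (31.8%), against 2.8% of all and 5.07% of CpG-rich promoters. They were found in 6 of the 15 genes called in all lines (40%), 6 of the 19 called in 2 lines (31.6%) and 2 of the 10 called in 1 line or none (20%). The carriers were mostly helicase, licensing and fork genes, namely *Mcm3*, *Mcm4*, *Mcm5*, *Mcm6*, *Cdc6*, *Cdt1*, *Gmnn*, *Rfc3*, *Pola1* and *Pole*, together with *Cdk1*, *Cdk2*, *E2f1* and *E2f2*. Within 150 bases of the summit, E2F letters were present for 36.8% of the genes called in HIGH, 41.2% in ON and 30.3% in OFF cells, against 4.48%, 4.46% and 4.67% of all promoter summits. The median distance from the summit to the nearest E2F letters was 72 bp in HIGH (n = 13), 72 bp in ON (n = 7) and 73.5 bp in OFF cells (n = 12), over the genes with such letters in the promoter window.

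CCAAT was in 30 of the 44 promoters (68.2%), against 37.8% of all and 36.2% of CpG-rich promoters. It occurred at least 2 times in 18 (40.9%), against 12% of all promoters. After the spacing in the *Ccnb2* and *Cdk1* stretches had been seen, pairs of CCAAT 30 to 35 bases apart were counted. They were in 6 of the 44 (13.6%), namely *Ccnb1*, *Ccnb2*, *Cdk1*, *Aurka*, *Aurkb* and *Rpa2*, against 1.83% of all and 2.94% of CpG-rich promoters. *Ccnb2* and *Cdk1*, which set the spacing, are counted among the 6. All but *Rpa2* encode mitotic cyclins or kinases. CHR letters (TTTGAA or TTCGAA) were in 11 (25%), against 17.6% of all and 9.72% of CpG-rich promoters. *Top2a* had the most, with 4 CHR and 6 CCAAT matches in the window. CHR letters were in 3 of the 15 genes called in all lines (20%) and in 4 of the 10 called in 1 line or none (40%), so that the E2F and CHR shares ran in opposite order over the calls. The numbers behind this order are small. The windows of *Ccnd3*, *Mcm7* and *Tk1* lie at a start site away from their summits, and that of *E2f3* lies between its peaks, so the lack of matches in these windows says nothing of the open sites.

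The promoters called in more lines were richer in GC. The median GC content within 500 bases of the start was 60.1% for the 15 genes called in all lines, 57.1% for the 19 in 2 lines, 53.8% for the 5 in 1 line and 53.1% for the 5 in none. Over all genes the medians were 60.6%, 60%, 57.3% and 48.7%. The uncalled replication and cell-cycle genes were thus not as poor in GC as uncalled genes in general.

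Away from start sites, the share of these genes with a peak was within a few percentage points of that of all genes. In the gene body or up to 50 kb upstream, more than 1 kb from any start site, there were 27 peaks at 15 genes (34.1%) in HIGH cells, against 32.9% of all genes with such a peak. In ON cells there were 5 at 3 genes (6.82%) against 11.3%, and in OFF cells 11 at 9 genes (20.5%) against 16.1%. *Cdk6* had 5, 2 and 3, the most in HIGH and OFF cells and level with *Rfc3* in ON cells. The gene is 179326 bp long, and 4, 1 and 2 of these peaks were in its body. Its peaks at chr5:3301149-3301459, upstream, and at chr5:3436143-3438467, in the gene, in HIGH cells overlapped peaks in both other lines, although the *Cdk6* promoter was uncalled in ON cells. The gene body peak was long in each, 2325 bp in HIGH, 2049 bp in ON and 2348 bp in OFF cells, with pileups of 56, 42 and 57.

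Peaks of this kind in the top 25% of their line and called in 1 line only were found at 2 genes, both in HIGH cells. Upstream of *Mcm5*, chr8:77607376-77608048 had a pileup of 111 (rank 4171) with its summit 25566 bp from the start site. Upstream of *Gmnn*, chr13:24877903-24878533 had a pileup of 112 (rank 4091) at 24496 bp. Both genes had a promoter call in HIGH cells too, with pileups of 146 and 110. Upstream of *Mki67*, a peak at chr7:142927399-142928215 in OFF cells had a pileup of 183 (rank 230), higher than the 143 of the promoter, and an overlapping ON peak had 68. Which gene these distal peaks act on is not given by the data. The *Mki67* peak and the *Cdk6* peaks were named after their values were seen.

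Other genes of the same processes showed the same order of lines. Of 111 further replication and cell-cycle genes, 103 (92.8%) were called in HIGH, 48 (43.2%) in ON and 87 (78.4%) in OFF cells. The shares of all genes, 46.4%, 21.4% and 36.1%, had this order too. In 3, 2, 1 and no lines there were 45, 42, 19 and 5 of the 111, against 17.5%, 18.5%, 14.6% and 49.5% of all genes. Those called in no line were *Topbp1*, *Pola2*, *Tipin*, *Pttg1* and *Zwilch*. The 19 called in 1 line were *Gins3*, *Rfc2*, *Prim2*, *Fen1*, *Rnaseh2a*, *Shmt1*, *Umps*, *E2f4*, *E2f6*, *Lin9*, *Cdc25b*, *Cdc25c*, *Cdc20*, *Bub1b*, *Kif23*, *Kif2c*, *Cenpa*, *Racgap1* and *Espl1*. Of the primase and polymerase alpha genes, *Pola1* was therefore called in 2 lines, *Prim2* in 1, and *Prim1* and *Pola2* in none. Of the 84 genes called in both HIGH and OFF cells, 45 (53.6%) were called in ON cells, beside 46.9% among the 44 genes and 52.9% of all genes.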

How the data were processed

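ATAC-seq libraries of 3 mouse cell lines were sequenced by the authors as 75 bp read pairs. Per the submitters' processing notes and the study's methods, reads were trimmed with Trim Galore 0.4.1, aligned to mm9 with Bowtie2 2.2.6, handled with SAMtools 1.6 and bedtools, and peaks were called with MACS2 2.1.1 at a q-value of 0.05. Replicates were pooled, without a control and without a Tn5 shift, which can widen peaks. The deposited pileup is a signal of whole fragments not scaled for depth. All reads in the input were kept (--keep-dup all), and whether duplicates had been removed before is unclear, so pileups may count them. Fold enrichment, as deposited, is a ratio of that pileup to local background, and the authors' q-values are on a −log10 scale. The deposited narrow peak files list the same peaks and were not used.

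Peaks were assigned to GENCODE M1 start sites on NCBIM37, the mm9 assembly, with pandas 2.3.3, numpy 2.4.6 and pysam 0.24.0 in Python 3.11.15, and plotted with matplotlib 3.10.9. Window matching and ratios were tested on simulated peaks. No test between groups was possible. The pileup a peak needed limits which sites could be called, and intervals are not given.

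The members and gene lists were chosen with earlier results of these data known. Values in full were given for genes not called in every line, those past 2-fold, the 5 highest and 5 lowest in each line, and strong single-line distal peaks. The CpG-rich background, the share of all genes with distal peaks, the share at high pileup, the order of pileups and the CCAAT spacing were added after seeing the data. Alternatives were windows of 500 bp and 5 kb, the summit in place of the peak edge, coding transcripts only, a q-value below 0.001, equal numbers of peaks, scaling within the chromosome or by total fragments alone, and fold enrichment in place of pileup. One promoter stretch chosen by the same rule is not reported here.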

Additional observations from a re-analysis of the deposited data

How the results depend on the processing

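No paired analysis was possible because the authors pooled both replicates of a line in 1 call, and for the same reason no replicate could be left out. Across the alternatives to the counts and median ratios, 50 values stayed close to the main one (counts within 1.5 times) and 4 moved. With an equal number of peaks in each line, genes called in 2 lines went from 19 to 9 and those called in no line from 5 to 13. Calls in HIGH cells then went from 38 to 26, counted as close but below the 27 in OFF cells. Scaled by total fragments alone, the median ratio became 1.57 for HIGH to OFF and 2.52 for HIGH to ON. Both rest on the general difference between the lines that scaling removes. The median ratio of ON to OFF, 0.69, became 0.518 by total fragments and 0.9 within the chromosome, both counted as close. A 500 bp window, the summit rule and coding transcripts each dropped *Tk1*. A 5 kb window added *E2f2* in HIGH, *Ccnd3* in ON and *Ccnd1* in OFF cells, and a q-value below 0.001 dropped *Tyms*. A promoter without a call may be open below 25 to 30 fragments, or at a higher pileup where local background is high. The second *E2f3* peak in HIGH cells, for example, had a pileup of 125 but a fold enrichment of only 2.45.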
